A study of Mus musculus with 2 samples.

Results

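The Hox cluster genes were the 39 protein-coding genes of the mouse annotation (GENCODE, mm10) whose symbols are Hoxa, Hoxb, Hoxc or Hoxd followed by a number, of 21829 protein-coding genes in all. Chromatin accessibility at these genes was described in skin cells from 2 single-cell ATAC-seq libraries. Accessible regions called in both libraries were used, and a promoter region was such a region within 500 bp of a transcription start site of a protein-coding transcript. Of the 39 genes, 36 had at least 1 promoter region, with 53 promoter regions between them of 18975 in all. A further 84 regions lay inside the 4 clusters, from the outermost start to the outermost end of the Hox genes, and served no promoter of a protein-coding gene.

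Hox genes code for transcription factors that bind DNA through a homeodomain and give cells along the body axis their positional identity. In mammals they stand in 4 clusters that arose by duplication, so genes of the same number in different clusters (paralogues) are close relatives. Within a cluster the genes are read from the same strand, and their order matches where and when they are used in the embryo, with low numbers towards the head and high numbers towards the tail and the ends of the limbs. Unused stretches of a cluster are typically held silent by Polycomb complexes, and Trithorax group proteins keep used stretches active. In skin, dermal fibroblasts are known to keep a pattern of Hox expression that reflects their site of origin, and Hoxc13 is needed for the differentiation of hair and nail.

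The study asked how loss of the histone acetyltransferase MOF, which acetylates histone H4 at lysine 16, alters the skin epithelium. The labels gave 1 library of Control back skin and 1 of MOF cKO back skin (genotype MOFfl/fl/K14Cre), both from embryos at E16.5 and both made from sorted K14-H2BGFP-positive epithelial and GFP-negative cells that were mixed again to enrich for epithelium. Cre was driven by the Krt14 promoter, so recombination is aimed at the epithelium and not at fibroblasts. The mice were of mixed C57Bl/6J and CD-1 background, the study used wildtype or heterozygous littermates as controls without saying which gave this library, and the number of embryos behind each library was not stated. With 1 library per genotype no test between genotypes was possible, and genotype cannot be told apart from library, embryo or preparation. All intervals are 95% intervals for counting error only.

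The libraries held 169641002 and 324310197 transposition cut sites in 2541 and 4348 barcodes (Control and MOF cKO), and 21 barcode sequences occurred in both. Cells were grouped without any region inside the Hox clusters or within 100 kb of them, so that a cell's class did not rest on Hox accessibility. Epithelial-like cells numbered 1694 in Control and 2644 in MOF cKO, and fibroblast-like cells numbered 659 and 1254. The epithelial-like cell clusters had 8 to 10 of 10 epithelial markers at least 2-fold above clusters of other classes and no fibroblast marker, and the fibroblast-like cell clusters had 7 or 8 of 10 fibroblast markers and no epithelial marker. Promoter sites of the 10 epithelial markers summed to 335 CPM (sites scaled to a total of 1e6 per class) in Control and 307 CPM in MOF cKO epithelial-like cells, and to 34.7 and 38.5 CPM in fibroblast-like cells. The contrast was smaller for the 10 fibroblast markers. They summed to 382 and 345 CPM in fibroblast-like cells and to 116 and 90.6 CPM in epithelial-like cells. The libraries stood apart: each epithelial-like cell cluster came almost wholly from a single library, and 308 of the Control epithelial-like cells formed a shallow cluster with a median of 2446.5 sites. A further 68 epithelial-like cells of MOF cKO also formed a shallow cluster. At the promoter of Kat8, the gene of MOF, the level was 48.7 CPM in Control and 36.7 CPM in MOF cKO epithelial-like cells and 29.6 and 27.6 CPM in fibroblast-like cells. Relative to the median of all promoters its log2 change was 0.01 (-0.06 to 0.08) and -0.07 (-0.22 to 0.08) in these classes. Where the floxed segment lies was not used here, so this promoter does not check the deletion.

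The 4 clusters were dense in accessible regions. HoxA (chromosome 6, 52155590 to 52260880, 11 genes), HoxB (chromosome 11, 96194316 to 96368256, 10 genes), HoxC (chromosome 15, 102921103 to 103036852, 9 genes) and HoxD (chromosome 2, 74668310 to 74765142, 9 genes) held 2.56, 2.59, 2.94 and 3.20 regions per 10 kb. The flanks of 100 kb on either side held 1.40 to 1.80 per 10 kb, and the genome as a whole 0.787. Most single promoters in these clusters were nevertheless less accessible than the typical promoter. The median level of the 36 Hox promoters in Control was 11.1 CPM per kb of region in epithelial-like cells and 11.99 CPM per kb in fibroblast-like cells, where the medians of all 15862 promoters were 20.7 and 23.4 CPM per kb. In each of those Control classes 5 of the 36 Hox promoters exceeded the median of all promoters, and in MOF cKO 6 did among epithelial-like cells and 2 among fibroblast-like cells.

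Levels differed widely between members. In Control epithelial-like cells Hoxc13 stood at 32.1 CPM per kb, and the lowest promoter was Hoxd10, a gene of the lumbar trunk and limb, with 3.35 CPM per kb. In Control fibroblast-like cells the highest was Hoxc10, which specifies lumbar identity, with 36.2 CPM per kb, and the lowest was Hoxb1, a gene of the hindbrain, with 2.56 CPM per kb. Summed over the promoters of a cluster, HoxA stood at 16.6, HoxB at 12.2, HoxC at 13.5 and HoxD at 6.61 CPM per kb in Control epithelial-like cells. The same sums in Control fibroblast-like cells were 15.1, 8.66, 16.49 and 9.10 CPM per kb. In MOF cKO the sums were 12.3, 9.13, 9.73 and 6.21 CPM per kb in epithelial-like cells and 14.5, 8.23, 11.9 and 8.71 CPM per kb in fibroblast-like cells. These sums are levels not set against the median of all promoters, so no direction between the classes was read from them.

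**Figure D1:**
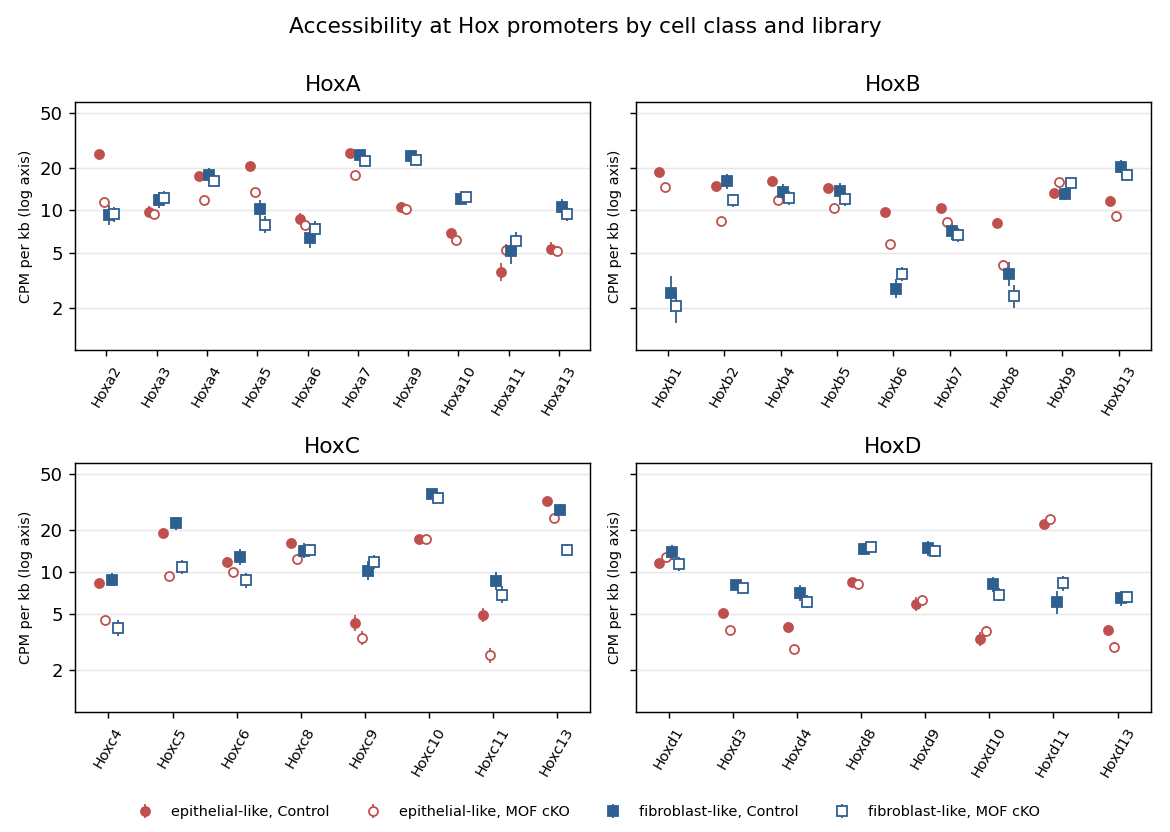
Level of Hox promoters in CPM per kb of region (log axis), for genes ordered by paralogue number in 4 clusters; filled symbols are Control, open symbols MOF cKO, circles epithelial-like and squares fibroblast-like cells, and bars are 95% intervals for counting error. Hoxc10 is the highest in Control fibroblast-like cells at 36.2 CPM per kb, and Hoxb1 and Hoxd11 are among the members where circles and squares lie farthest apart.

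Promoter here means the accessible region at a start site, and 33 of the 36 genes had a region that covered a start site itself. The exceptions were Hoxc9, whose region lay 18 bp away, Hoxa11, at 450 bp and over the start of the antisense gene Hoxa11os, and Hoxb1, at 473 bp and inside the gene. The region of Hoxa3 lay at an upstream alternative start and also served the readthrough gene Gm28308. The 3 genes without a value were Hoxb3, Hoxc12 and Hoxd12. A start site of Hoxb3 lay 261 bp from a peak of MOF cKO alone and another 345 bp from a peak of Control alone, the start of Hoxc12 lay in a peak of MOF cKO alone, and that of Hoxd12 lay 522 bp from the nearest MOF cKO and 1492 bp from the nearest Control peak. These 3 genes are therefore not counted in any ratio. Some regions also served noncoding genes, whose accessibility cannot be told apart from that of the member: Hoxd9 shared its region with Gm28793, and Hoxa2, Hoxc5 and Hoxd1 shared theirs with Hoxaas2, Mir615 and Haglr. Hoxd3 likewise shared 1 of its regions with Hoxd3os1.

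Hox promoter regions were rich in the dinucleotide CpG. The ratio of observed to expected CpG had a median of 0.689 over the 53 Hox promoter regions and 0.659 over all promoter regions, and 40 of the 53 (75.5%) reached 0.6 against 57.3% of all. The other regions inside the clusters had a median ratio of 0.475 and a GC content of 51.8%, where all regions that were no promoter region had 0.204 and 45.3%. Of these 84 cluster regions, 17 (20.2%) reached a CpG ratio of 0.6, against 1.39% of all such regions. Cluster regions away from promoters thus lay between promoters and other regions in base composition.

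Short motifs were counted on both strands. The CCAAT box occurred in 15 of the 24 RefSeq promoter sequences that matched 22 Hox genes (62.5%) and in 37.4% of all RefSeq promoters, each 300 bases long. In the middle 300 bases of the accessible promoter regions it occurred in 39.6% of the 53 Hox regions and 32.9% of all. The HOX-PBX motif TGATTNAT occurred in 2 of the 24 (8.33%) against 3.22% of all, the homeodomain core TAATTA in 8.33% against 5.29%, and TATAAA in 16.7% against 13.6%. In the middle 300 bases of the accessible promoter regions, TATAAA occurred in 17.0% of the Hox regions against 5.59% of all, TGATTNAT in 3.77% against 1.68%, and TAATTA in 3.77% against 2.34%. The AP-1 motif TGANTCA occurred in the middle 300 bases of 5 of the 84 other cluster regions (5.95%) and of 22.3% of all regions that were no promoter region. In the same sequences TGATTNAT occurred in 8.33% against 6.96% and the CCAAT box in 34.5% against 32.9%. TAATTA occurred in 4.76% against 9.44% and TATAAA in 8.33% against 16.2%. Matches of TGATTNAT and TGANTCA, or of TGATTNAT and TAATTA, can share letters, and a match is a description of the letters and not of binding.

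Epithelial-like and fibroblast-like cells differed in which Hox promoters were open. In both libraries Hoxb1, Hoxd11, Hoxb6, Hoxa5 and Hoxb8 were at least 2-fold higher in epithelial-like cells, and Hoxc9 was at least 2-fold higher in fibroblast-like cells, when each ratio was taken relative to the median ratio of all promoters in that library. Hoxa2 was past 2-fold in the epithelial direction in Control alone and Hoxc13 in MOF cKO alone, and Hoxa9, Hoxd9 and Hoxd10 were past 2-fold in the fibroblast direction in Control alone. In Control 7 of 36 members were 2-fold higher in epithelial-like cells, where 11.2% of all promoters were, and 4 were 2-fold lower, where 5.79% were. In MOF cKO 7 were higher, against 12.9% of all promoters, and 1 was lower, against 4.55%. The median over the 36 members was 0.05 log2 units above that of all promoters in Control and 0.34 above it in MOF cKO. Counting each region once turned the Control median to -0.07 and gave 8 of 53 regions in Control and 6 of 53 in MOF cKO that were 2-fold lower, where 8.08% and 6.72% of all promoter regions were, and 9 and 10 that were 2-fold higher, where 16.3% and 18.6% were. A window of 100 bp turned the Control median to -0.0017. The members spread more widely than promoters in general, with quartiles of -0.64 and 0.49 in Control around that background where all promoters had -0.25 and 0.29.

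**Figure D2:**
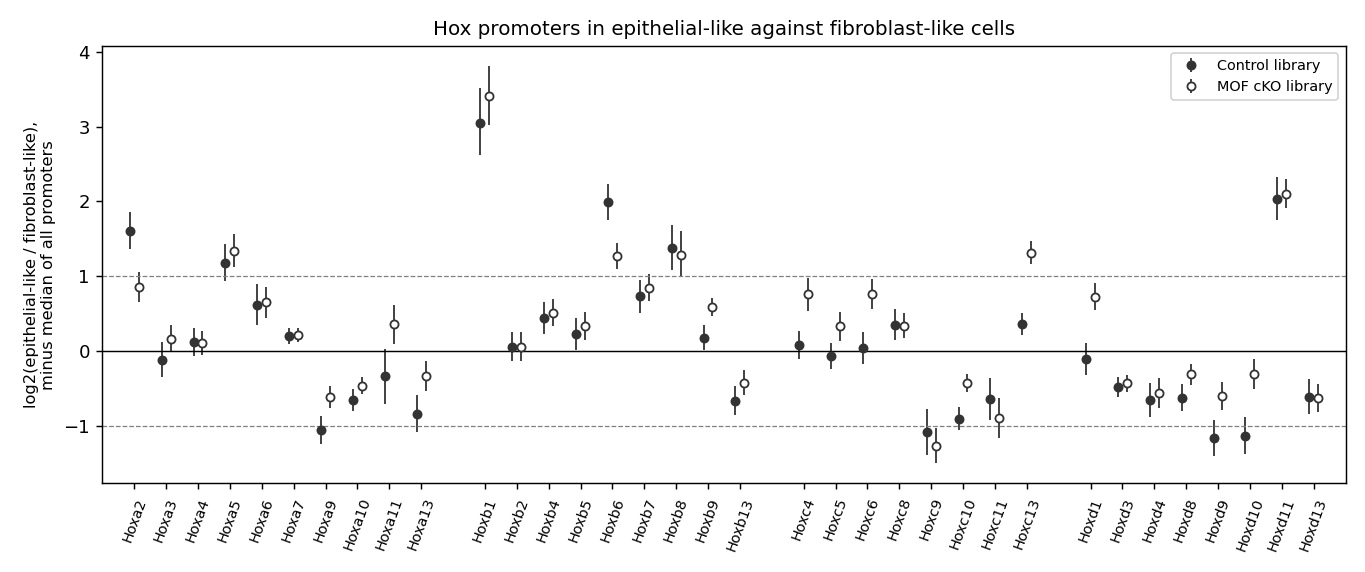
log2 ratio of epithelial-like to fibroblast-like accessibility at Hox promoters, minus the median over all promoters of the same library; filled points are Control, open points MOF cKO, bars are 95% intervals for counting error, and dashed lines mark 2-fold. Hoxb1 stands highest at 3.05 and 3.40, and most genes numbered 9 and above in HoxA, HoxC and HoxD lie below 0.

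Over the 4 clusters pooled, the sign of the difference went with paralogue number. Of the 22 members numbered 1 to 8, 16 had a ratio above the median of all promoters in Control and 19 in MOF cKO. Of the 14 members numbered 9 to 13, 3 did in Control and 4 in MOF cKO, and the remainder leaned towards fibroblast-like cells. The median relative log2 ratio in Control was 0.22 for the first set and -0.65 for the second. This split was placed after the values had been seen and is given as a description. It did not hold at the low numbers of HoxD. There Hoxd1, Hoxd3, Hoxd4 and Hoxd8 had -0.10, -0.48, -0.65 and -0.62 in Control. Hoxd11, of the second set, had 2.04.

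In HoxA the member that leaned most to the epithelium in Control was Hoxa2, which patterns the second branchial arch and hindbrain. Its promoter stood at 21.7 CPM in Control and 9.81 CPM in MOF cKO epithelial-like cells and at 7.96 and 7.99 CPM in fibroblast-like cells, so that Control epithelium was the one high value of the 4. Relative to all promoters the epithelial to fibroblast log2 ratio was 1.61 (interval 1.37 to 1.86) in Control and 0.86 (0.65 to 1.06) in MOF cKO. The member that leaned most to fibroblasts was Hoxa9, which acts in the posterior trunk, limb and blood. It stood at 9.29 and 8.94 CPM in epithelial-like cells and at 21.6 and 20.1 CPM in fibroblast-like cells (Control and MOF cKO), with relative log2 ratios of -1.05 (-1.23 to -0.86) and -0.61 (-0.76 to -0.46). Both epithelial values were below both fibroblast values. Hoxa5, a gene that acts in lung and the cervical trunk, had a relative log2 ratio of 1.18 in Control and 1.34 in MOF cKO, above that of Hoxa2 in MOF cKO, and Hoxa10 and Hoxa13, genes of the posterior trunk and limb, had -0.65 and -0.83 in Control.

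HoxB held the largest difference of all members. Hoxb1 stood at 17.1 CPM in Control and 13.4 CPM in MOF cKO epithelial-like cells, and at 2.32 and 1.87 CPM in fibroblast-like cells. The relative log2 ratio was 3.05 (2.63 to 3.51) in Control and 3.40 (3.03 to 3.81) in MOF cKO, and it rests on the region inside the gene, which a window of 100 bp leaves out. Hoxb6, a gene of the thoracic trunk, stood at 27.8 and 16.3 CPM in epithelial-like cells and at 7.83 and 9.98 CPM in fibroblast-like cells, with relative log2 ratios of 1.99 and 1.27. Of its 3 regions, the one at chromosome 11, 96291569 to 96292528, had 12.2 CPM in Control epithelial-like and 1.23 CPM in Control fibroblast-like cells. The lowest member of the cluster was Hoxb13, which stands far from the others and is used in tail, prostate and gut. It stood at 10.0 and 7.90 CPM in epithelial-like cells and at 17.7 and 15.5 CPM in fibroblast-like cells, a relative log2 ratio of -0.66 (-0.85 to -0.46) in Control. Hoxb13 alone of the HoxB members lay below the median of all promoters in Control.

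At the low-numbered end of HoxC the ratios were near 0 in Control and above it in MOF cKO. Hoxc4, Hoxc5 and Hoxc6, genes of the cervical and thoracic trunk, had relative log2 ratios of 0.09, -0.06 and 0.04 in Control, with intervals that include 0, and 0.76, 0.34 and 0.77 in MOF cKO, with intervals above 0. Hoxc9, of the thoracic trunk, stood at 3.54 and 2.75 CPM in epithelial-like cells and at 8.36 and 9.69 CPM in fibroblast-like cells, with relative log2 ratios of -1.08 (-1.38 to -0.77) and -1.26 (-1.50 to -1.02). Hoxc13 stood highest of the cluster per length in Control epithelial-like cells, with 32.1 CPM per kb. Over its region it stood at 28.0 CPM in Control and 21.2 CPM in MOF cKO epithelial-like cells and 24.4 and 12.5 CPM in fibroblast-like cells. Its relative log2 ratio was 0.36 (0.21 to 0.51) in Control and 1.32 (1.16 to 1.48) in MOF cKO, and the lowest of its 4 values was that of MOF cKO fibroblast-like cells.

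In HoxD the largest ratio was that of Hoxd11. Hoxd11, a gene of the forearm and lower trunk, stood at 21.0 and 22.8 CPM in epithelial-like cells and at 5.74 and 7.86 CPM in fibroblast-like cells, with relative log2 ratios of 2.04 (1.76 to 2.33) and 2.10 (1.91 to 2.29). Hoxd9, which lies 2 genes away and acts in the lower trunk and limb, stood at 5.30 and 5.69 CPM in epithelial-like cells and at 13.2 and 12.6 CPM in fibroblast-like cells, with relative log2 ratios of -1.16 (-1.40 to -0.92) and -0.59 (-0.78 to -0.40). Hoxd10, between them, had -1.12 in Control and -0.31 in MOF cKO. Hoxd1, at the other end of the cluster, had -0.10 (-0.32 to 0.11) in Control and 0.73 (0.55 to 0.91) in MOF cKO. Hoxd3, Hoxd4, Hoxd8 and Hoxd13 lay between -0.65 and -0.48 in Control. The promoters of these neighbours, and of 2 members that the comparison of genotypes turns on, follow with each CpG dinucleotide in capitals, since CpG content was compared above.

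The sequences are 5′ to 3′ on the strand of the gene, from RefSeq (GRCm38.p6), 250 bases before to 50 after the start: Hoxd11 at chr2:74682073-74682372 (25 CpG, 1 match to TAATTA and 1 to TGATTNAT), Hoxd9 at chr2:74697513-74697812 (20 CpG and none of the 5 motifs), Hoxa2 at chr6:52164782-52165081 (minus strand, 9 CpG, 4 CCAAT boxes and 1 match to TGATTNAT) and Hoxc4 at chr15:103034145-103034444 (9 CpG and 1 CCAAT box).
Hoxd11: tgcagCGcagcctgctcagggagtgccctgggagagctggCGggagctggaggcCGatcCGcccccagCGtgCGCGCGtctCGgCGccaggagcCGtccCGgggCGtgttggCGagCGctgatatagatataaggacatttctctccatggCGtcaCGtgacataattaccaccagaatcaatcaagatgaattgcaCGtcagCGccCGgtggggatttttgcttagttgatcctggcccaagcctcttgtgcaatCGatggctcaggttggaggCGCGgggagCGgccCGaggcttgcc
Hoxd9: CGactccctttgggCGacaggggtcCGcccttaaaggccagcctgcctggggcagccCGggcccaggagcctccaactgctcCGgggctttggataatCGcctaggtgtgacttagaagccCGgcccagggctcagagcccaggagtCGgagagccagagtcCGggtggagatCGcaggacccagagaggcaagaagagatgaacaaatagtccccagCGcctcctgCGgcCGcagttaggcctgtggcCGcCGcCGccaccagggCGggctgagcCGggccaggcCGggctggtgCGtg
Hoxa2: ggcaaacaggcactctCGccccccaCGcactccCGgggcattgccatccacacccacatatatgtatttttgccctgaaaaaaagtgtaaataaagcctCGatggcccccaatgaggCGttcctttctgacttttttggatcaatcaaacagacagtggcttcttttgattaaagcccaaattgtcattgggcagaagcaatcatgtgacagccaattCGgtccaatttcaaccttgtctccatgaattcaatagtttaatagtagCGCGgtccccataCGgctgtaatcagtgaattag
Hoxc4: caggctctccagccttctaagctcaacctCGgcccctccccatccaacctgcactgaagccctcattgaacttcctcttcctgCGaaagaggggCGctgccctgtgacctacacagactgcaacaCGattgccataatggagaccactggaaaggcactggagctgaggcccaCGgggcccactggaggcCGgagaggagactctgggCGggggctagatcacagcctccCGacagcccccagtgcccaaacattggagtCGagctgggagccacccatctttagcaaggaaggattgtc

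For Hoxb1 the middle 300 bases of the accessible region, which lies inside the gene, are shown on the plus strand of GRCm38.p6 at chr11:96366527-96366826, again with CpG in capitals. The whole region had a CpG ratio of 0.592.
Hoxb1 region: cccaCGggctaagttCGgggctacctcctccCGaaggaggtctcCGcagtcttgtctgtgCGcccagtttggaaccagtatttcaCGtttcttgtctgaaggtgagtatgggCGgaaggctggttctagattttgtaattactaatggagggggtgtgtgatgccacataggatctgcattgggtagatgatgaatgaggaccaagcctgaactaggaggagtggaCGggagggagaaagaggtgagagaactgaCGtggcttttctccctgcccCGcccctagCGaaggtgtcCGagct

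The 84 regions between the promoters were compared between the classes in the same way. Relative to the median of all shared regions that were no promoter region, their median log2 ratio of epithelial-like to fibroblast-like cells was -0.61 in Control and -0.85 in MOF cKO. The quartiles in Control were -1.08 and 0.56 over the 84 regions and -1.54 and 1.67 over all such regions. In Control 11 of 84 were 2-fold higher in epithelial-like cells, below the 34.0% of all such regions, and 25 were 2-fold lower, where 31.4% of all were. In MOF cKO 9 were higher against 35.6%, and 36 were lower against 32.8%. Regions nearest to a Hox start numbered 1 to 5 had a median of 0.43 in Control, with 21 of 36 above the background, and those nearest to a start numbered 6 to 13 had a median of -0.78, with 6 of 48 above it. In MOF cKO the first set had a median of -0.17, with 16 of 36 above the background, and the second -1.05, with 6 of 48, so that the sign of the first set held in Control alone. The same contrast in Control within HoxB was 11 of 13 against 3 of 18 (7 of 13 and 3 of 18 in MOF cKO), and within HoxC 3 of 4 against 2 of 21, whereas in HoxD 1 of 9 and 1 of 7 lay above the background. This division was also placed after the values had been seen.

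**Figure D3:**
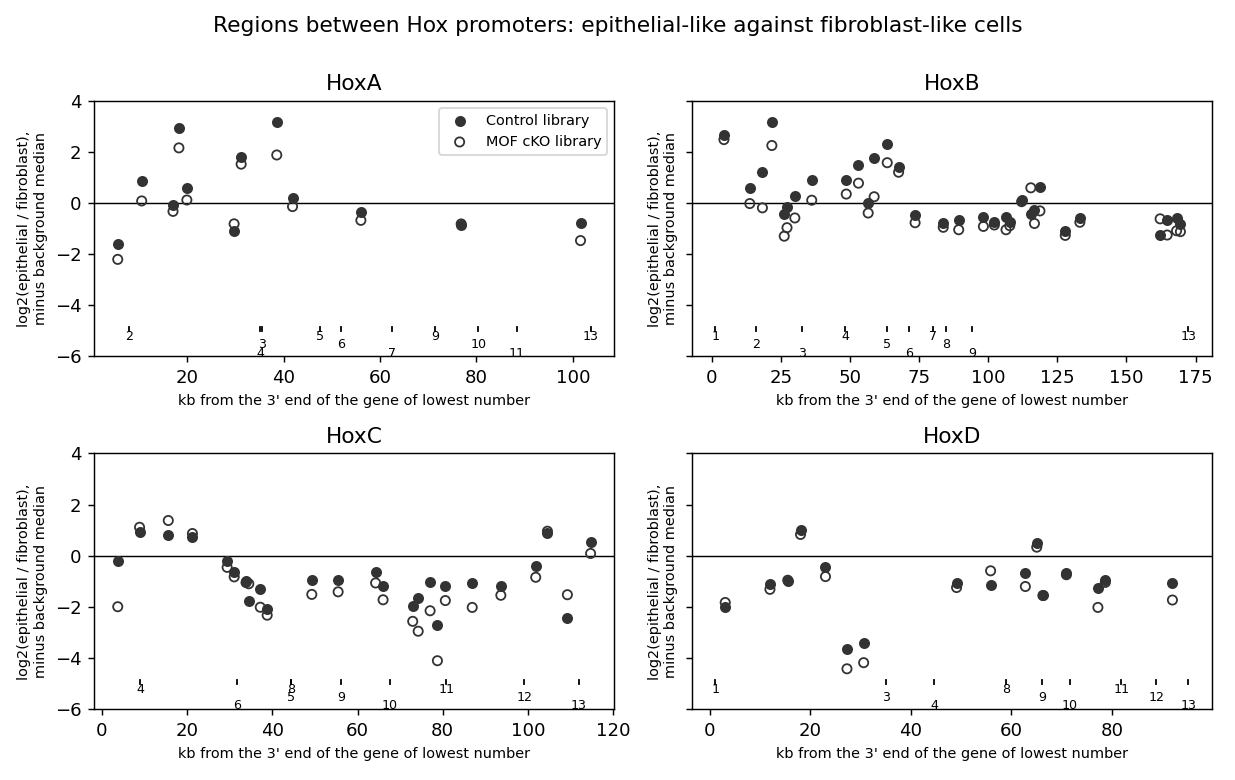
log2 ratio of epithelial-like to fibroblast-like accessibility at the 84 regions between promoters, minus the median of all shared regions that are no promoter region, against distance in kb from the 3′ end of the lowest-numbered Hox gene; filled points are Control, open points MOF cKO, and ticks with numbers mark the middle of Hox genes. In HoxB the points lie above 0 mainly on the side of low numbers, and in HoxD a pair of points near gene 3 lies lowest at -3.62 and -3.40 in Control.

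The regions with the largest epithelial lean were in HoxB and HoxA. The region at chromosome 11, 96346132 to 96347013, over Hoxb3 and its antisense gene Hoxb3os, stood at 28.0 and 10.9 CPM in epithelial-like cells and at 2.14 and 1.48 CPM in fibroblast-like cells, a relative log2 ratio of 3.18 (2.75 to 3.67) in Control. The region at chromosome 6, 52193735 to 52194641, lay within the long annotated span of Hoxa3 and over Hoxaas3, and was nearest to the start of Hoxa4. It stood at 7.43 and 2.20 CPM in epithelial-like cells and at 0.579 and 0.386 CPM in fibroblast-like cells, a relative log2 ratio of 3.15 in Control. That at chromosome 6, 52173532 to 52174249, reached 2.92. The regions with the largest fibroblast lean were a pair in HoxD over Hoxd3 and Gm28230, at chromosome 2, 74734092 to 74735016 and 74737418 to 74738332. They stood at 12.6 and 11.7 CPM in Control fibroblast-like cells and at 1.73 and 1.38 CPM in Control epithelial-like cells, with relative log2 ratios of -3.40 (-3.75 to -3.06) and -3.62 (-4.02 to -3.26). A region in HoxC over Hoxc11, at chromosome 15, 102957647 to 102958550, followed at -2.71.

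The middle 300 bases of these regions are given on the plus strand of GRCm38.p6, because they carry the widest differences between the classes. Capitals mark matches to TAATTA, TGATTNAT or TGANTCA on either strand. The HoxB region was read at chr11:96346422-96346721, the HoxA region at chr6:52194038-52194337, and the HoxD pair at chr2:74734404-74734703 and chr2:74737725-74738024. A single match stood among the 4, to TGATTNAT in the first of the HoxD pair.
HoxB, over Hoxb3: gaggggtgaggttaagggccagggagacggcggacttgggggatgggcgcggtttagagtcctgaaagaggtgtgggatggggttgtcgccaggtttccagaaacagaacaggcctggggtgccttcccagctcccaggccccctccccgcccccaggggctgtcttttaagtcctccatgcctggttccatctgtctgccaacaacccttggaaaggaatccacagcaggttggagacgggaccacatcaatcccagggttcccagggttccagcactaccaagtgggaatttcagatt
HoxA, over Hoxa3: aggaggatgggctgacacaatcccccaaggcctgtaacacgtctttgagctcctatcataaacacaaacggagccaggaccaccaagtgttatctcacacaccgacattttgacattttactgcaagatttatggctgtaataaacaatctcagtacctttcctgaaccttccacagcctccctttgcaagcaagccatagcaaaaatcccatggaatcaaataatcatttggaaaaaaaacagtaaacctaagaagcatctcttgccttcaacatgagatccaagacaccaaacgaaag
HoxD, first: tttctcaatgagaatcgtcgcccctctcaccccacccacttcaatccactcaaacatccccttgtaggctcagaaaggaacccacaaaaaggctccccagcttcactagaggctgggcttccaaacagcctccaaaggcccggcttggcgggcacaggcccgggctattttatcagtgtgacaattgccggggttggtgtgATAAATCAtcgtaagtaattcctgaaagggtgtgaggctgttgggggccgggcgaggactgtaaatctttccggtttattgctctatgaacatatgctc
HoxD, second: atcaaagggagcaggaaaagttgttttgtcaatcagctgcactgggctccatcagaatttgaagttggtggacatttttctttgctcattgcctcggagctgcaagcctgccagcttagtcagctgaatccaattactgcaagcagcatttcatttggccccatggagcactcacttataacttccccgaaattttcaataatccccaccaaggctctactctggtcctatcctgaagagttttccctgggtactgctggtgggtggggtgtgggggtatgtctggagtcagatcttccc

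In epithelial-like cells of MOF cKO no Hox gene, with its promoter regions summed, differed by 2-fold from Control relative to promoters in general. Counted by region, 2 of the 53 Hox promoter regions were 2-fold higher, where 6.67% of all promoter regions were. Without the cells of highest doublet score 1 gene was 2-fold higher, namely Hoxa11 at 1.04. The share of all promoters was not computed for that setting. All promoters had a median log2 ratio of MOF cKO to Control of -0.42, and the share of sites in promoter regions was 37.9% in Control and 28.8% in MOF cKO. Changes are therefore given relative to that median. The median of the 36 members was 0.04 above it, 22 members lay above and 14 below, and the members ranged from -0.73 to 0.94. None was 2-fold higher, where 4.33% of all promoters were, and none 2-fold lower, where 0.580% were. The quartiles were -0.13 and 0.20 over all promoters and -0.11 and 0.36 over the members.

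**Figure D4:**
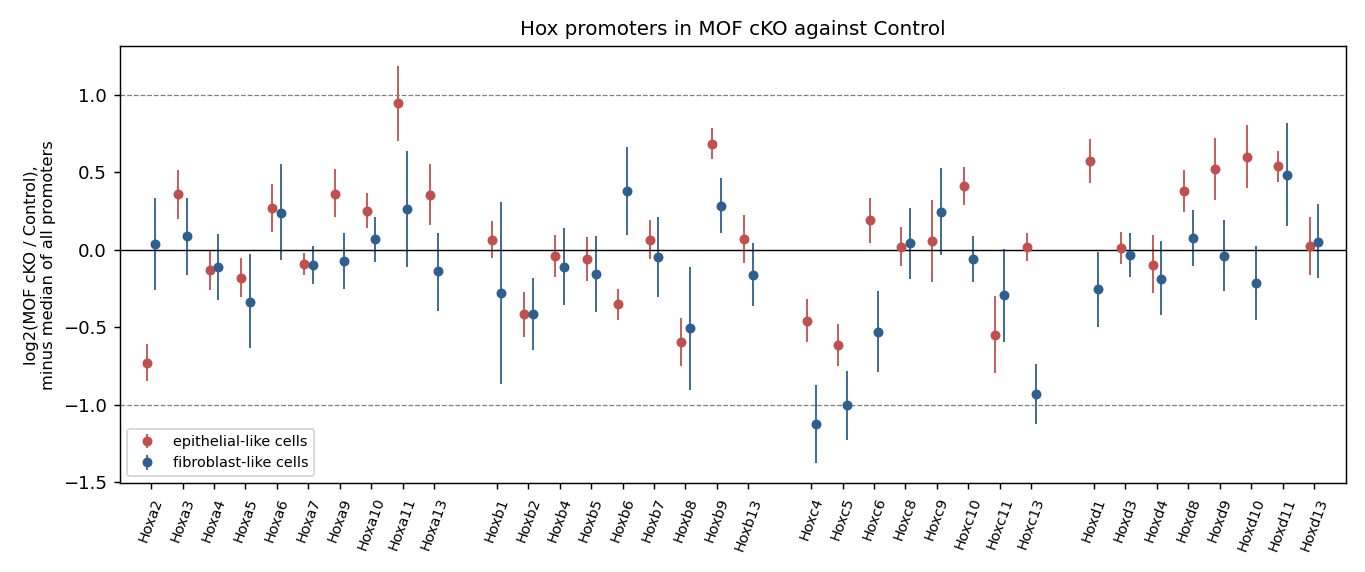
log2 ratio of MOF cKO to Control at Hox promoters, minus the median over all promoters in the same class, for epithelial-like as well as fibroblast-like cells; bars are 95% intervals for counting error and dashed lines mark 2-fold. In fibroblast-like cells Hoxc4, Hoxc5 and Hoxc13 lie lowest at -1.12, -1.002 and -0.93, and in epithelial-like cells Hoxa11 lies highest at 0.94 and Hoxa2 lowest at -0.73.

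The members with the highest relative change in the epithelium were mostly genes of high number, and 13 of the 14 members numbered 9 to 13 lay above the median of all promoters, where 9 of 22 numbered 1 to 8 did. Of the 13, Hoxc13, Hoxd13, Hoxc9 and Hoxb13 had only 0.02, 0.02, 0.06 and 0.07. The split was placed after the ratios between the classes had been seen. Control epithelium enters both comparisons, so the counts are a description and not independent of those ratios. Hoxa11, a gene of the forearm and of the female reproductive tract, went from 3.34 to 4.81 CPM, a relative log2 change of 0.94 (0.70 to 1.19), at the region over Hoxa11os. Hoxb9, of the thoracic trunk, went from 20.4 to 24.6 CPM, with 0.68 (0.58 to 0.78). Hoxd10 had 0.60 (0.40 to 0.80), Hoxd1, the lone low-numbered gene among the highest 5, 0.57 (0.43 to 0.71), and Hoxd11 0.54 (0.44 to 0.64). In 2 of these genes the value came from 1 of 2 neighbouring regions. At Hoxb9 the region from 96270866 to 96271560 had a relative log2 change of 1.19 and the next, from 96271580 to 96272426, had 0.05. At Hoxd10 the region from 74692159 to 74692888 had 1.18 and the one before it, from 74691283 to 74692129, had -0.03. Levels also varied over the epithelial-like cell clusters within a library, 4 in Control and 5 in MOF cKO. Hoxa11 spanned 2.94 to 4.07 CPM in Control and 3.36 to 6.39 CPM in MOF cKO, and Hoxb9 15.2 to 23.5 and 20.3 to 39.3 CPM. The ranges of all 5 highest genes overlapped between the libraries. These levels were not set against the median of all promoters.

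The members with the lowest relative change were Hoxa2, Hoxc5, Hoxb8, Hoxc11 and Hoxc4. Hoxa2 went from 21.7 (20.5 to 22.9) to 9.81 (9.22 to 10.4) CPM, a relative log2 change of -0.73 (-0.85 to -0.61). Hoxc5 went from 16.8 to 8.22 CPM and Hoxb8, a gene of the thoracic trunk, from 12.1 to 6.02 CPM, with -0.62 (-0.75 to -0.48) and -0.60 (-0.75 to -0.44). Hoxc11, of the lower trunk and limb, went from 4.87 to 2.49 CPM, with -0.55, and Hoxc4 from 15.1 to 8.22 CPM, with -0.46. Over the same epithelial-like cell clusters, Hoxa2 spanned 14.5 to 24.1 CPM in Control and 6.52 to 13.4 CPM in MOF cKO. Hoxc4 spanned 9.90 to 15.4 and 5.74 to 9.85 CPM, so the ranges of both genes lay apart. The ranges of Hoxc5, Hoxb8 and Hoxc11 overlapped. These levels too were not set against the median of all promoters, which was itself lower in MOF cKO. Ranges also lay apart at Hoxb2, Hoxa4 and Hoxc8, whose relative log2 changes were -0.42, -0.13 and 0.02. The lowest Control values of Hoxa2 and Hoxc4 came from the shallow Control cell cluster.

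By cluster, the median relative change in the epithelium was 0.25 in HoxA, -0.04 in HoxB, 0.02 in HoxC and 0.45 in HoxD. In HoxD, Hoxd1, Hoxd8, Hoxd9, Hoxd10 and Hoxd11 had intervals above 0, while Hoxd3, Hoxd4 and Hoxd13 had 0.01, -0.10 and 0.02. By number, both genes of group 2 lay below the background (Hoxa2 and Hoxb2, -0.73 and -0.42), and all 4 genes of group 4 did (-0.46 to -0.04). The 4 genes of group 9 and the 3 of group 10 all lay above it, from 0.06 to 0.68. In groups 4, 9 and 10 the intervals of Hoxb4, Hoxd4 and Hoxc9 included 0.

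Between the promoters, most cluster regions lay below the median change of regions elsewhere in MOF cKO epithelium. The 84 regions had a median log2 change of -0.33 relative to all shared regions that were no promoter region. Of them, 72 lay below that background. With cells thinned to 5000 sites the median was -0.62 over the 80 regions then compared. Before the background of -0.11 was taken off, the median of the 84 was -0.44, near the -0.42 of all promoters. Relative quartiles were -0.57 and -0.13 over the 84 and -0.52 and 0.74 over all such regions. Peaks of 1 library only have no ratio. HoxA, HoxB, HoxC and HoxD held 6, 4, 3 and 3 of these in Control and 5, 12, 6 and 6 in MOF cKO. At least 2-fold higher were 2 of the 84, where 19.9% of all such regions were, and at least 2-fold lower were 8, where 10.8% were. The 17 cluster regions with a CpG ratio of at least 0.6 had a median of -0.16 with none past 2-fold in either direction, and the 67 with a lower ratio had -0.39 with 2 higher and 8 lower. The lowest was the HoxA region described above, within the span of Hoxa3 and nearest to the start of Hoxa4. It went from 7.43 to 2.20 CPM, with a relative log2 change of -1.65 (-1.88 to -1.41). The HoxB region over Hoxb3 followed, from 28.0 to 10.9 CPM with -1.25 (-1.36 to -1.14). A region of HoxC at chromosome 15, 102959427 to 102960205, went from 1.84 to 0.720 CPM with -1.25 (-1.71 to -0.82).

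The highest regions were in HoxB, HoxA and HoxD. A region at chromosome 11, 96252415 to 96253293, over the long noncoding RNA gene Gm53, went from 6.18 to 11.96 CPM in epithelial-like cells, a relative log2 change of 1.06 (0.89 to 1.23), and from 5.74 to 5.10 CPM in fibroblast-like cells. A region at chromosome 6, 52184870 to 52185812, 1486 bp from a start of Hoxa3, went from 3.34 to 6.37 CPM in epithelial-like cells, with 1.04 (0.81 to 1.28), and from 4.89 to 7.21 CPM in fibroblast-like cells, with 0.52 (0.17 to 0.88). A region of HoxD at chromosome 2, 74746635 to 74747603, had 0.93. The HoxA region is shown at chr6:52185191-52185490 on the plus strand of GRCm38.p6, since it was among the highest in both classes and held 2 matches to TGANTCA and 1 to TGATTNAT, which are in capitals.
HoxA, near the start of Hoxa3: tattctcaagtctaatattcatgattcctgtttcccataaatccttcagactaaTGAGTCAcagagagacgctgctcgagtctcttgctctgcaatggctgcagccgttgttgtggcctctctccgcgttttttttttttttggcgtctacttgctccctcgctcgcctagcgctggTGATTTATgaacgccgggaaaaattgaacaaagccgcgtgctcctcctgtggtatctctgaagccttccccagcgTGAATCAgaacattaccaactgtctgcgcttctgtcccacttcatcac

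In fibroblast-like cells, which are not the target of Krt14-Cre, the low-numbered end of HoxC was lower in MOF cKO. Hoxc4 went from 15.9 (14.2 to 17.8) to 7.15 (6.24 to 8.15) CPM and Hoxc5 from 19.6 (17.7 to 21.7) to 9.60 (8.54 to 10.7) CPM, relative log2 changes of -1.12 (-1.38 to -0.87) and -1.002 (-1.23 to -0.78). Hoxc13 followed, from 24.4 to 12.5 CPM, with -0.93 (-1.13 to -0.74), and Hoxc6, from 12.1 to 8.21 CPM, with -0.53 (-0.79 to -0.27). Hoxc8, Hoxc9 and Hoxc10 had 0.04, 0.24 and -0.06, and Hoxc11 had -0.30, all with intervals that include 0. Relative to the median of all promoters, which was -0.03 in these cells, the 36 members had a median of -0.09. No member was 2-fold higher, where 1.98% of all promoters were, and 2 were 2-fold lower, where 0.769% were. Counted by region, 2 of 53 were 2-fold lower, where 1.50% of all promoter regions were. With a promoter window of 100 bp, which leaves out the upstream region of Hoxc4 at 480 bp, 1 member was, with no share of all promoters computed.

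The highest members in fibroblast-like cells were Hoxd11, from 5.74 to 7.86 CPM with 0.48 (0.16 to 0.82), Hoxb6, from 7.83 to 9.98 CPM with 0.38 (0.09 to 0.66), and Hoxb9, from 20.2 to 24.1 CPM with 0.28 (0.11 to 0.46). The median relative change was -0.01 in HoxA, -0.15 in HoxB, -0.41 in HoxC and -0.04 in HoxD. Within fibroblast-like cell clusters 6 and 7, which the libraries filled unequally, Hoxd11 had -0.23 (-0.93 to 0.57) and 0.55 (-0.16 to 1.30), Hoxb6 0.35 and 0.11, and Hoxb9 0.19 and 0.07, all with intervals that include 0. Of the 2 regions of Hoxc4, the upstream one, at chromosome 15, 103017558 to 103018454, went from 5.79 to 1.53 CPM in fibroblast-like cells, and the other, from 103034335 to 103035233, from 10.1 to 5.62 CPM.

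The makeup of the fibroblast-like class differed between the libraries. Cell cluster 7 held 59.6% of the fibroblast-like cells in Control and 6.86% in MOF cKO, cell cluster 6 held 34.7% and 20.02%, and cell clusters 5 and 8 held 0.910% and 4.70% in Control and 41.6% and 31.5% in MOF cKO. Hoxc13 stood at 29.9 CPM in Control and 28.3 CPM in MOF cKO within cell cluster 7, a relative log2 change of -0.07 (-0.44 to 0.29), and at 13.4 and 8.21 CPM within cell cluster 6, with -0.76 (-1.32 to -0.18). Hoxc5 was lower within both, from 23.1 to 12.1 CPM in cell cluster 6, with -0.97 (-1.43 to -0.53), and from 17.9 to 8.75 CPM in cell cluster 7, with -1.03 (-1.67 to -0.39). Hoxc4 had -0.84 (-1.49 to -0.26) and -0.87 (-1.50 to -0.29) within these cell clusters. The intervals of Hoxc4 and Hoxc5 lay below 0 within both cell clusters, and that of Hoxc13 included 0 in cell cluster 7. Genotype and library cannot be told apart in these differences.

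**Figure D5:**
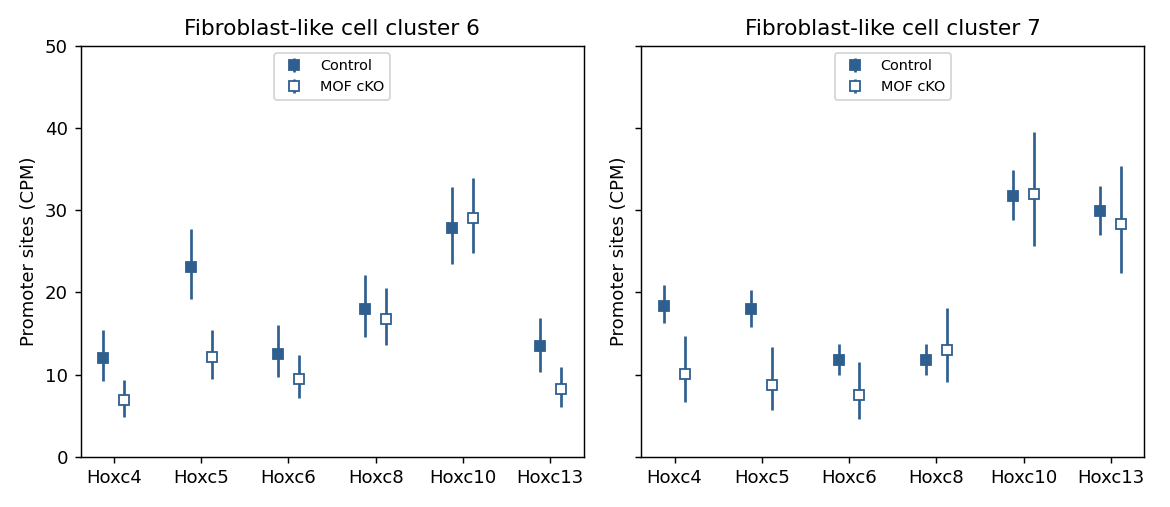
Promoter level in CPM of 6 HoxC genes within fibroblast-like cell clusters 6 and 7, the ones with at least 50 cells of each library; filled squares are Control, open squares MOF cKO, and bars are 95% intervals for counting error. Hoxc4 and Hoxc5 are lower in MOF cKO in both panels, and Hoxc13 stands at 29.9 and 28.3 CPM in cell cluster 7 and at 13.4 and 8.21 CPM in cell cluster 6.

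The regions between promoters followed in part. In fibroblast-like cells the 84 cluster regions had a median log2 change of -0.18 relative to other regions (-0.115 with cells thinned to 5000 sites, -0.053 and -0.096 within cell clusters 6 and 7 alone), with 0 of 84 at least 2-fold higher against 10.9% of all such regions and 1 of 84 at least 2-fold lower against 8.40%. That region, at chromosome 15, 103020836 to 103021706, lay over Hoxc4 and went from 3.40 to 1.40 CPM, with -1.32 (-1.89 to -0.74). The next lowest were the region at chromosome 15, 103015147 to 103016073, over Hoxc5, from 10.2 to 5.47 CPM with -0.93 (-1.23 to -0.63), and one over Hoxa10, at chromosome 6, 52231969 to 52232915, with -0.86. The highest had wide intervals: the HoxD region at 74746635 rested on 18 and 53 sites, with 0.88 (-0.29 to 2.13), and was followed by the HoxA region near the start of Hoxa3 and by one over Hoxb3os at chromosome 11, 96349556 to 96350420, with 0.35.

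Genes that work with or on the clusters were described by lists, to be read against the 4.33% of all promoters 2-fold higher and 0.580% lower in the epithelium and 1.98% and 0.769% in fibroblast-like cells. The 9 cofactors of Hox proteins (the Pbx, Meis and Pknox families) had a median relative change of -0.08 in MOF cKO epithelium and -0.12 in fibroblast-like cells, with none past 2-fold. The 21 Polycomb group genes had -0.14 and -0.08, also with none past 2-fold, with Eed, a core subunit of the complex that methylates histone H3 at lysine 27, lowest at -0.66 and -0.84. The 10 Trithorax group genes had -0.05 and -0.06 with none past 2-fold, and Kdm6b, which removes such methylation, was highest in the epithelium at 0.52. Of 11 upstream regulators, which include the Cdx genes and enzymes of retinoic acid metabolism, 9 had a promoter region (Cdx1 and Cyp26c1 had none). Their median was 0.41 in the epithelium, with Cdx4, a gene of the posterior embryo, past 2-fold at 1.49 and Cyp26a1, which breaks down retinoic acid, at 0.97. In fibroblast-like cells the median was 0.01 with none past 2-fold.

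A list of 22 further transcription factors of trunk and skin, homeobox genes apart from the T-box gene Tbx15, also differed between the classes. In Control 9 of them were at least 2-fold lower in epithelial-like cells, led by the mesenchymal genes Prrx1, Tbx15 and En1 at -2.82, -2.57 and -2.33, where 5.79% of all promoters were, and 3 were at least 2-fold higher, near the 11.2% of all promoters, namely Barx2, Dlx5 and Dlx3 at 1.78, 1.65 and 1.15. In MOF cKO 5 were at least 2-fold lower, where 4.55% of all promoters were, and 3 were at least 2-fold higher, where 12.9% were. The median over the 22 was -0.84 in Control and -0.49 in MOF cKO. Prrx1 is also one of the markers that named the fibroblast-like class, so its value is no independent result. In MOF cKO against Control none of the 22 was past 2-fold in either class, with medians of 0.11 and -0.02.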

How the data were processed

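Single-cell ATAC-seq had been run on 1 Control and 1 MOF cKO library. Per the labels, the authors used Cell Ranger ATAC and mm10, and deposited for each library a matrix whose entries are raw counts, the number of cut sites that each barcode had in each peak, with peaks called in each library separately. The values were taken as deposited. Overlapping peaks of the libraries were joined into 214119 shared regions, which held 96.6% (Control) and 88.5% (MOF cKO) of sites. Cells with at least 1000 sites were kept (2481 and 4348) and grouped with Leiden clustering (python-igraph 0.11.9, leidenalg 0.10.2, scikit-learn 1.9.0) on 50000 regions. A class needed at least 3 markers 2-fold above other clusters, and 99.97% of cells kept their class when Hox regions were included. Cells of high doublet score were kept and left out only as an alternative.

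Sites were summed per class and library and divided by all sites that the class had in shared regions, to give CPM. A ratio was called at 2-fold from the median of all promoters, or for other regions from all regions that were no promoter region, with at least 20 sites. Values were mostly even (88.8% and 91.6%), since a fragment gives a pair of sites, so exact Poisson and binomial 95% intervals used fragments. They cover counting error only. Scripts were tested on simulated data. A member is not reported here by name, and counts, medians and sums include it. The members and lists were chosen with earlier results of these data known. Values were given in full for the members with the largest and smallest ratio between the classes in each cluster, the 5 highest and 5 lowest in MOF cKO epithelium, the 3 and 3 in fibroblast-like cells, and the 3 and 3 other regions of each comparison with at least 100 sites, and other members were named after their values were seen. Alternatives changed the total, the site minimum, the promoter window, the start sites, the clustering, the cell minimum, thinning and doublets.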

Additional observations from a re-analysis of the deposited data

Results flagged for a closer look

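At 3 of the 36 members the change from Control to MOF cKO, relative to the median of all promoters, pointed one way in the epithelial-like class and the other way in fibroblast-like cells, with counting intervals on opposite sides of 0. Hoxb6 had -0.35 in the epithelial-like class and 0.38 in the fibroblast-like class, a difference of -0.733 log2 units. Hoxc6 had 0.19 and -0.53, a difference of 0.72, and Hoxd1 had 0.57 and -0.25, a difference of 0.825. As levels, Hoxb6 and Hoxd1 also went opposite ways in the classes. The level of Hoxc6 was lower in MOF cKO in both, from 11.1 to 9.49 CPM in epithelial-like and from 12.1 to 8.21 CPM in fibroblast-like cells. A further 11 members had intervals that did not overlap between the classes without lying on opposite sides of 0. Such a gap can come from the medians taken off alone, which were -0.42 (epithelial-like) and -0.03 (fibroblast-like). Hoxc5 is among the 11, and before that step its log2 change was -1.03 in either class. Hoxa2, also among them, had -1.14 and 0.005 before it, so its gap did not come from the medians alone. The share of all promoters that meet either rule was not computed. These counts are therefore not read as particular to Hox genes. With 1 library per genotype the difference between the classes was not tested, and the fibroblast-like class was made up of different cell clusters in the libraries. Within fibroblast-like cell clusters 6 and 7 the change was 0.35 (-0.23 to 0.89) and 0.11 (-0.65 to 0.80) for Hoxb6, -0.44 (-1.01 to 0.10) and -0.65 (-1.40 to 0.03) for Hoxc6, and -0.01 (-0.48 to 0.44) and 0.20 (-0.39 to 0.70) for Hoxd1. The opposite direction of Hoxd1 was thus not seen within these cell clusters, and all 6 intervals include 0.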

How the results depend on the processing

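Counting each promoter region once, in place of each gene, moved the medians of the Hox promoters to 0.00911 (MOF cKO over Control, epithelial-like), -0.0709 (epithelial-like over fibroblast-like, Control) and 0.138 (the same, MOF cKO). It moved the counts to 2 of 53 regions 2-fold higher in MOF cKO epithelium and to 8 (Control) and 6 (MOF cKO) of 53 that were 2-fold lower in epithelial-like than in fibroblast-like cells. A promoter window of 100 bp gave medians of 0.00586, -0.00172 and 0.204 in the same order, -0.288 for the other cluster regions in MOF cKO epithelium, 1 member 2-fold lower in MOF cKO fibroblast-like cells and 2 lower in epithelial-like than fibroblast-like cells of MOF cKO. The sign of the Control median between the classes therefore changed with both settings. Start sites of principal transcripts gave -0.286 and -0.875 for the other cluster regions (MOF cKO epithelium and epithelial-like over fibroblast-like in MOF cKO) and 1 promoter 2-fold lower in fibroblast-like cells, and a minimum of 100 sites gave -0.356 in the epithelium. Cells thinned to 5000 sites, which left out 304 Control and 74 MOF cKO cells, gave -0.184 for Hox promoters in fibroblast-like cells and, for the other cluster regions, -0.624 (epithelium), -0.115 (fibroblast-like), -0.752 and -1.12 (between the classes, Control and MOF cKO). Leaving out cells with the highest doublet scores, the other cluster regions had -0.354, -0.145 and -0.902 (epithelium, fibroblast-like, between the classes in MOF cKO), and 1 Hox promoter was 2-fold higher in MOF cKO epithelium. Cell clusters 6 and 7 alone, chosen after seeing the data, gave -0.0530 and -0.0956 for the other cluster regions in fibroblast-like cells, 0 and 1 promoters 2-fold lower, and 0.0401 for the Hox promoters in cell cluster 7. Apart from the count by region, the share of all promoters called was not computed under these alternatives. Their counts of called promoters therefore have no background beside them. Of the values that answer a comparison, 150 alternatives moved less than the limit set and 30 moved more. The median of all promoters in MOF cKO epithelium was -0.42, with size factors from the median of ratios -0.01, and -0.56 when all peaks of a library gave the total. No paired analysis was possible because each genotype had 1 library, and for the same reason no replicate could be left out.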

Other observations

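Among the smaller classes, Hox promoters were least accessible in immune-like cells, with 4.54 CPM per kb over the 53 regions in Control (46 cells, interval 3.93 to 5.21) and 4.397 CPM per kb in MOF cKO (281 cells), where HoxA stood highest of the clusters at 8.20 and 9.05 CPM per kb and HoxD lowest at 1.99 and 2.02 CPM per kb. In muscle-like cells (24 and 20 cells) HoxA stood at 26.6 and 24.4 CPM per kb and HoxB at 6.42 and 6.35 CPM per kb. In endothelial-like cells (9 and 26 cells) HoxC stood at 3.60 and 5.09 CPM per kb, below HoxA at 19.3 and 17.4 CPM per kb in both libraries. Mural-like cells had no cluster below 8.60 CPM per kb. These classes rest on few cells, and the intervals cover counting error only.

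Of 27 noncoding genes inside the clusters, Hoxb5os, which is read antisense to Hoxb5, had the largest ratio between the classes in Control, with a relative log2 ratio of epithelial-like to fibroblast-like cells of 3.01 (2.47 to 3.66) in Control and 2.77 (2.37 to 3.20) in MOF cKO. The long noncoding genes Hotair and Gm14396 and the microRNA genes Mir10a, Mir10b and Mir196b had no region at their start in both libraries. Haglr, beside Hoxd1, had 4 regions, of which 1 was the promoter region of Hoxd1. Its relative log2 change was 0.62 (0.53 to 0.71) in MOF cKO epithelium and 0.03 (-0.10 to 0.16) in fibroblast-like cells.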
